A study of Mus musculus with 24 samples.

Results

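The 10 genes described here encode proteins of the elastic fibre and of the matricellular group, with one inhibitor of calcification: Eln, Fbn1, Fbln5, Mfap5, Mfap4, Lox, Mgp, Thbs1, Thbs2 and Spp1. They were chosen by name, as all probes of the bead array whose platform annotation carries one of these symbols, and earlier results of these arrays were known when the list was made. Of the 10 genes, 8 had a probe with their symbol, 1 probe each, out of 16593 genes with a named probe. Of these 8 genes, 6 were detected on enough arrays to be tested, among 7675 genes tested in all: Eln, Mfap5, Lox, Mgp, Thbs1 and Thbs2. No probe carried the symbol of Fbn1, the main protein of microfibrils, or Spp1, osteopontin, and both were not analysed here.

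RNA was measured on 24 Illumina bead arrays from carotid artery smooth muscle cells of male C57bl6 mice, grown as primary cultures. The arrays fall into 5 groups: 5 arrays of PMCA4 knockout cells (KO) electroporated with DNA for PMCA4b, 4 of KO cells with vector B, 5 of KO cells with vector A, 5 of KO cells without added DNA, and 5 of wild type cells (WT). Atp2b4 encodes PMCA4, which pumps calcium across the plasma membrane to the outside, and the b form is a splice variant. All 5 groups were synchronized, stimulated with serum and the growth factor PDGF-BB, and collected in late G1/S. The deleted part of the gene, the age of the mice, what separates vector A from vector B and whether replicates were separate cultures or mice are stated nowhere in the labels. The p-values therefore measure the spread between these arrays, which may be technical.

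Elastic fibres give large arteries their recoil. Soluble tropoelastin is laid down on a scaffold of fibrillin microfibrils and is then cross-linked by enzymes of the lysyl oxidase family, with fibulins and microfibril-associated proteins as helpers of assembly. Matricellular proteins such as the thrombospondins are secreted into the same matrix but act mainly on cells, through integrins and other receptors, while matrix Gla protein keeps the artery wall from mineralizing.

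Among the 6 genes tested, the microfibril gene Mfap5 and the thrombospondin Thbs2 were below the detection limit on all 5 arrays of KO cells with PMCA4b and above it on all 19 other arrays. Mgp was also lowest in KO cells with PMCA4b, whereas Eln and Lox were lowest in WT cells. Thbs2 and Mfap5 also differed between the 2 vectors, in opposite directions.

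Values below are log2 intensities after background correction and quantile normalization, and a probe counts as detected on an array at a detection p under 0.01. Each array had between 9496 and 10406 of 25697 probes detected, and the lowest value of a detected probe lay between 6.16 and 6.57. Arrays of 1 group correlated at 0.9916 or more. The 1 probe of Atp2b4 above background read 6.73 ± 0.513 with PMCA4b, 6.72 ± 0.233 with vector B, 6.68 ± 0.161 with vector A, 6.84 ± 0.181 in KO and 6.81 ± 0.209 in WT cells (SD; n = 5, but 4 with vector B), with a log2 difference of 0.03 between KO and WT (limma, Benjamini-Hochberg adjusted p = 0.881). The position of the probe in relation to the deletion is unknown here, so its level is no check of the genotype or of the added DNA. Of 14 smooth muscle markers, 6 were tested and Acta2 was high in every group (13.88 to 15.96 in the group means), while Myh11, Cnn1, Des, Lmod1, Myocd and Synpo2 were detected on 0 of 24 arrays. Tagln read 10.11 in KO, 8.5 in WT and 6.54 with PMCA4b, and was undetected with both vectors. Actg2 was detected only in KO cells. Endothelial Pecam1, Cdh5 and Vwf, leukocyte Ptprc and adipocyte Adipoq and Fabp4 were also not detected on any array. Of 10 endothelial and 10 leukocyte markers, 1 each was tested: Egfl7 read 9.27 with PMCA4b, 8.95 with vector B, 7.17 in KO and 8 in WT cells and was undetected with vector A, and Cd14 ranged from 6.85 in KO to 8.99 with vector B in the group means. Of 8 adipocyte markers, Pparg and Plin4 were tested, and their summed linear level ranged from 101 to 141 with PMCA4b, 2019 to 2174 with vector B, 2986 to 3293 with vector A, 540 to 644 in KO and 316 to 390 in WT cells. Of 10 fibroblast markers, 7 were tested, and their summed linear level ranged from 7310 to 8539 with PMCA4b, 15671 to 17655 with vector B, 17810 to 19252 with vector A, 38633 to 42026 in KO and 4631 to 5189 in WT cells. The KO and PMCA4b sums are mostly Thy1, at 14.81 in KO and 12.59 with PMCA4b. Thy1 read 11.06 with vector B and 11.52 with vector A, whereas Dcn read 13.02 and 12.53 there and 9.81 in KO. Of the 7 markers tested, 4 were higher and 3 lower with vector than in KO. Lum was detected on 0 of 24 arrays, Dcn and Dpt were not detected in WT cells, and Pdgfra was not detected with PMCA4b. The part of these markers in the results below was not tested, and fewer cells of a type and less RNA per cell cannot be told apart in such bulk samples.

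Eln encodes tropoelastin, the soluble precursor of the elastic core. It read 8.28, 8.29, 8.26, 8.22 and 8.18 on the arrays with PMCA4b, 9.33, 9.25, 9.20 and 9.23 with vector B, and 9.16, 9.15, 9.20, 8.87 and 9.13 with vector A. In KO cells it read 9.21, 9.28, 9.41, 9.30 and 9.22, and in WT cells 7.99, 7.92, 8.13, 7.78 and 8.06. Vector B overlapped with both vector A and KO at the top, the PMCA4b arrays lay below all 3 groups, and the WT arrays were the lowest, with no overlap between WT and any other group. Eln was 2.48-fold higher in KO than in WT cells (log2 difference 1.31, SE 0.064, limma adjusted p = 1.64e-14). With PMCA4b it was 1.9-fold lower than with vector (log2 -0.93, SE 0.0566, limma adjusted p = 3.18e-13), and 1.21-fold higher than in WT cells (log2 0.27, SE 0.064, limma adjusted p = 0.000605). The vector arrays did not pass the test against KO, with a log2 difference of -0.11 (95% interval -0.23 to 0.01, limma adjusted p = 0.0874), though vector A alone did (log2 -0.18, limma adjusted p = 0.0128).

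Mfap5 encodes microfibril-associated glycoprotein 2, a small protein bound to fibrillin microfibrils. It read 5.04, 4.85, 5.56, 5.31 and 5.40 with PMCA4b, 7.82, 7.74, 7.78 and 7.78 with vector B, and 10.03, 10.08, 9.99, 10.14 and 9.98 with vector A. It read 11.19, 11.31, 11.25, 11.14 and 11.19 in KO cells and 7.21, 7.41, 7.27, 7.29 and 7.21 in WT cells. The 5 groups did not overlap in any pair, and the PMCA4b arrays were all below detection, with detection p-values from 0.102 to 0.708. KO cells had 15.4-fold more Mfap5 signal than WT cells (log2 3.94, SE 0.0873, limma adjusted p = 3.22e-21). Because the PMCA4b arrays give only an upper bound, folds against them are set against the lowest detected value on each array. Mfap5 was at least 5.37-fold lower with PMCA4b than with vector (fitted log2 -3.68, limma adjusted p = 5.31e-22). It was at least 1.73-fold lower than in WT cells (fitted log2 -2.04, limma adjusted p = 5.64e-16). Here and below, the p-value beside such a bound is that of the fitted difference, and the bound itself was not tested. Both vectors were below KO, with log2 differences of -3.44 for vector B and -1.17 for vector A, and vector B was 4.79-fold below vector A (log2 -2.26, SE 0.0926, limma adjusted p = 3.34e-15). Taken against 1 vector at a time, PMCA4b was lower by at least 2.45-fold for vector B and at least 11.8-fold for vector A.

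Fbln5, which bridges elastin to cells and to cross-linking enzymes, and Mfap4, a microfibril-associated protein of the artery wall, were below detection on all 24 arrays at a detection p of 0.01 and also at 0.05. The Fbln5 probe read between 4.62 and 5.17, and the Mfap4 probe between 4.81 and 5.25. With the filter on dim probes left out, their log2 differences in the 5 comparisons lay between -0.12 and 0.12, with limma adjusted p-values from 0.25 to 0.978. These probes give no level for either gene, and whether the transcripts were absent was not tested.

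Lox encodes lysyl oxidase, the enzyme that cross-links elastin and collagen. It read 13.44, 13.43, 13.69, 13.55 and 13.36 with PMCA4b, 13.54, 13.57, 13.59 and 13.53 with vector B, and 13.65, 13.69, 13.72, 13.71 and 13.69 with vector A. It read 13.42, 13.61, 13.63, 13.63 and 13.53 in KO cells and 12.77, 12.75, 13, 12.60 and 12.75 in WT cells. The WT arrays lay apart from and below all 19 arrays of KO cells, with or without DNA, which lay between 13.36 and 13.72. KO cells had 1.73-fold more Lox signal than WT cells (log2 0.79, SE 0.064, limma adjusted p = 2.29e-10), and KO cells with PMCA4b 1.65-fold more than WT (log2 0.72, SE 0.064, limma adjusted p = 5.68e-10). Against vector, PMCA4b passed narrowly (log2 -0.13, SE 0.0566, limma adjusted p = 0.0382), but the arrays overlapped and the call was lost against vector B alone (log2 -0.06, limma adjusted p = 0.403) and under median scaling (log2 -0.05, limma adjusted p = 0.475). It was also lost without PMCA4b replicate 1, 2 or 5 (limma adjusted p = 0.0887, 0.0917 and 0.133), vector A replicate 3 or 4 (0.0535 and 0.0505) or vector B replicate 2 or 3 (0.0535 and 0.0589). Vector did not pass against KO (log2 0.06, 95% interval -0.05 to 0.18, limma adjusted p = 0.315).

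Mgp encodes matrix Gla protein, which needs vitamin K-dependent carboxylation and inhibits calcification of the artery wall. It read 10.86, 11.06, 11.05, 10.94 and 10.92 with PMCA4b, 14.70, 14.55, 14.64 and 14.55 with vector B, and 14.78, 14.72, 14.73, 14.80 and 14.73 with vector A. It read 14.88, 15.09, 15.14, 14.89 and 14.73 in KO cells and 15.46, 15.58, 15.66, 15.58 and 15.58 in WT cells. The PMCA4b arrays stood far below all others, and the WT arrays were the highest without overlap. With PMCA4b, Mgp was 13.1-fold lower than with vector (log2 -3.71, SE 0.0562, limma adjusted p = 1.1e-24) and 24.3-fold lower than in WT cells (log2 -4.61, SE 0.0635, limma adjusted p = 1.9e-25). Taken against 1 vector at a time, the log2 difference was -3.64 for vector B and -3.79 for vector A. Mgp was the one gene of the 6 that was lower in KO than in WT cells, by 1.54-fold (log2 -0.63, SE 0.0635, limma adjusted p = 1.07e-08). The WT values lie near the top of the normalized scale, 16.02, and whether saturation reduced this difference was not tested. Vector was 1.2-fold lower than KO (log2 -0.26, limma adjusted p = 0.000189), with overlapping arrays.

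Thbs1 encodes thrombospondin 1, a secreted trimer that binds CD47 and integrins and activates latent TGF-beta. It read 7.47, 7.25, 7.37, 7.43 and 7.07 with PMCA4b, 7.66, 7.83, 7.70 and 7.78 with vector B, and 8.31, 8.21, 8.23, 8.43 and 8.38 with vector A. It read 10.48, 10.96, 11, 11.03 and 10.78 in KO cells and 10.07, 10.04, 9.94, 9.92 and 9.95 in WT cells. The 3 electroporated groups lay well below KO and WT, and no 2 of the 5 groups overlapped. Thbs1 was 7.07-fold lower with vector than in KO cells without DNA (log2 -2.82, SE 0.0772, limma adjusted p = 7.29e-20). With PMCA4b it was 1.63-fold lower than with vector (log2 -0.71, SE 0.0772, limma adjusted p = 1.21e-08). These 2 comparisons share the vector arrays. The second difference was 1.34-fold against vector B (log2 -0.42, limma adjusted p = 0.000276) and 1.99-fold against vector A (log2 -0.99, limma adjusted p = 2.69e-10). KO cells had 1.82-fold more Thbs1 signal than WT cells (log2 0.86, SE 0.0874, limma adjusted p = 1e-08), and KO cells with PMCA4b had 6.35-fold less than WT (log2 -2.67, SE 0.0874, limma adjusted p = 2.85e-18).

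Thbs2 encodes thrombospondin 2, a related trimer known in mice for its part in collagen fibril assembly and in restraining new vessels. It read 5.27, 5.74, 5.23, 5.59 and 5.18 with PMCA4b, 10.74, 10.68, 10.75 and 10.69 with vector B, and 7.76, 7.80, 8.04, 7.89 and 7.97 with vector A. It read 11.09, 11.04, 11, 11.05 and 10.93 in KO cells and 10.70, 10.66, 10.65, 10.48 and 10.54 in WT cells. Vector B, KO and WT lay close together, vector A lay well below them, and the PMCA4b arrays were the lowest and all below detection. Vector B was 7.08-fold above vector A (log2 2.82, SE 0.0894, limma adjusted p = 2.55e-17), although both are vector controls in the same knockout cells. The average of the vectors was 3.3-fold below KO (log2 -1.72, SE 0.0745, limma adjusted p = 6.2e-16), which joins 1.24-fold for vector B (log2 -0.31, limma adjusted p = 0.00388) and 8.77-fold for vector A (log2 -3.13, limma adjusted p = 6.99e-20). PMCA4b was at least 7.04-fold below vector (limma adjusted p = 8.82e-23), at least 18.7-fold against vector B and at least 2.65-fold against vector A. It was at least 17.4-fold below WT (limma adjusted p = 2.97e-24), and KO was 1.33-fold above WT (log2 0.42, SE 0.0843, limma adjusted p = 0.00019).

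**Figure D1:**
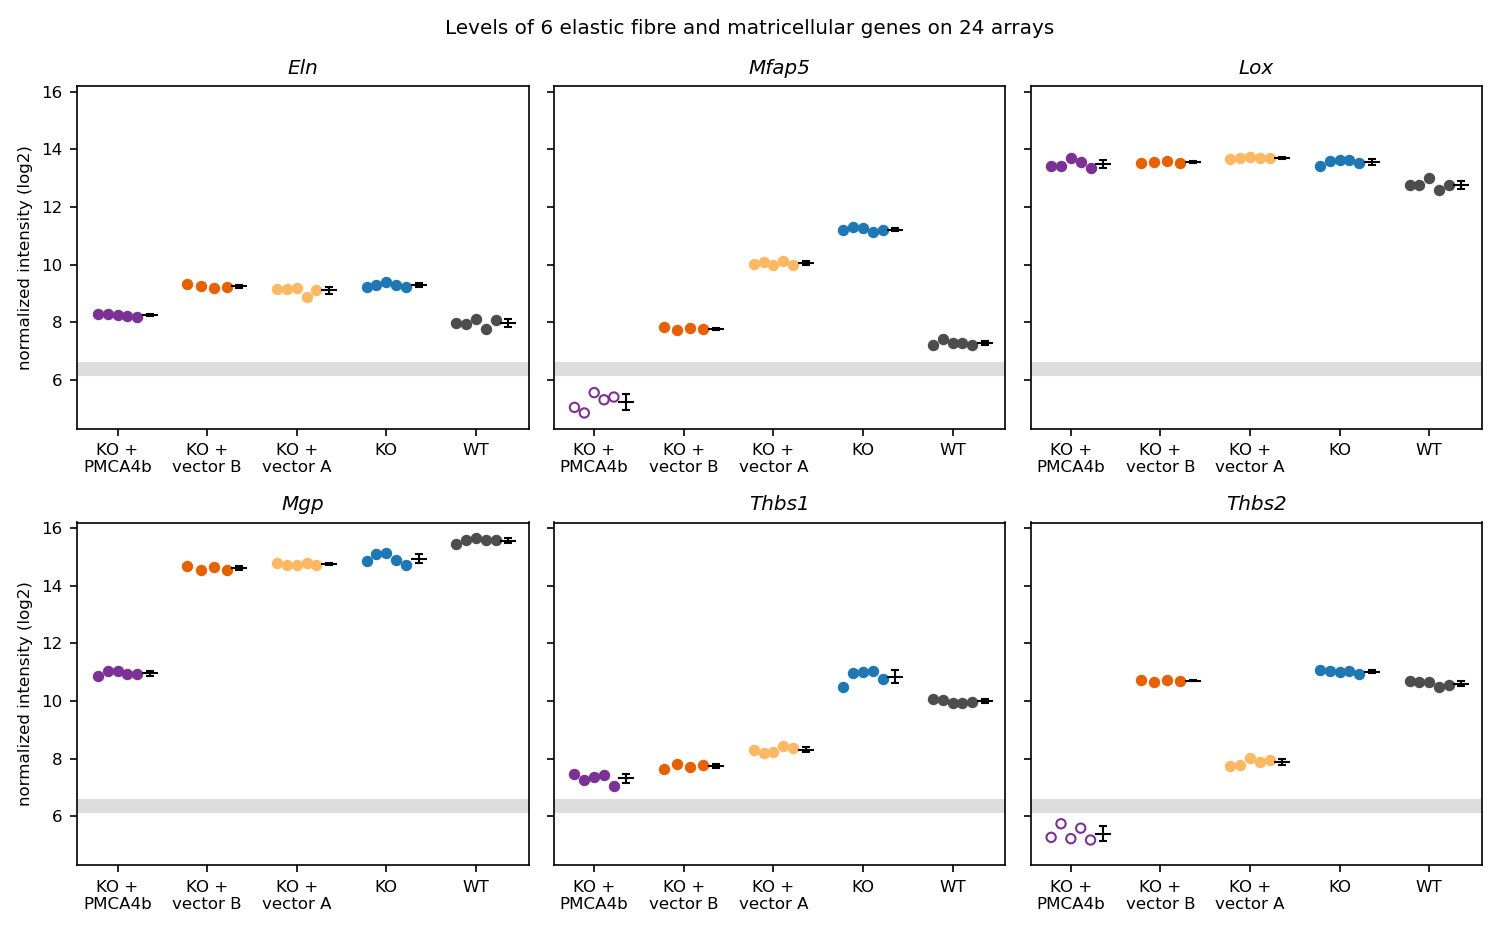
Normalized log2 intensity (vertical axes) of the 6 genes on each of the 24 arrays, by group; each point is 1 array, open where the probe was not detected, the bar beside each group is the mean ± SD, and the grey band spans the lowest detected value of each array (6.16 to 6.57). The PMCA4b arrays of Mfap5 and Thbs2 are all open and lie below the band, and Thbs2 separates vector B (10.68 to 10.75) from vector A (7.76 to 8.04).

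The order of the group means differed between genes. KO cells without DNA were the highest for Eln, Mfap5, Thbs1 and Thbs2, and WT cells were the highest for Mgp. KO cells with PMCA4b were the lowest for Mfap5, Mgp, Thbs1 and Thbs2, whereas WT cells were the lowest for Eln and Lox. Neighbours in the order whose arrays overlapped were vector B and KO, and vector B and vector A, for Eln, with gaps of 0.03 and 0.15. They were vector B and KO, and PMCA4b and vector B, for Lox (gaps of 0 and 0.06), vector A and KO for Mgp (0.19), and vector B and WT for Thbs2 (0.1). All other neighbours among the 6 genes were separated without overlap. How common such separation is among all genes was not counted. Across the 24 arrays in their 5 groups, the Pearson correlation was highest between Mgp and Thbs2 (0.87) and between Eln and Lox (0.77), and it was lowest between Lox and Thbs1 (-0.36). These correlations describe the group means above, since the arrays of a group share their culture condition.

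Knockout against wild type asks how cells labelled as lacking PMCA4 differ from cells that have it. In KO cells, the elastic fibre genes Eln, Mfap5 and Lox and both thrombospondins rose, and the calcification inhibitor Mgp fell. By limma, 5 of the 6 genes were higher and 1 was lower, where 26.6% of all 7675 genes tested were higher and 31.1% were lower. The median log2 difference was 0.83 over the 6 genes and -0.04 over all genes. In the same comparison, 5 of 6 smooth muscle markers were higher and 0 lower, and 5 of 7 fibroblast markers were higher and 1 lower. The summed smooth muscle levels, mostly Acta2, were 70720 to 74493 in KO and 28173 to 32485 in WT cells. The part of these markers in the result was not tested. The KO and WT arrays did not overlap for any of the 6, but how many of all genes share this was not counted. The smallest difference was that of Thbs2. Within the 3 sets of 8 neighbouring columns of the deposited table, each of which held KO and WT arrays, the log2 differences kept their signs, from 3.92 to 3.98 for Mfap5, 1.16 to 1.40 for Eln and -0.85 to -0.54 for Mgp.

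PMCA4b against vector asks what PMCA4b DNA changes in knockout cells that went through the same electroporation. By limma, all 6 genes were lower with PMCA4b and 0 were higher, also at an unadjusted p under 0.05, where 40.5% of all genes were lower and 38.3% were higher. The median log2 difference was -1.68 over the 6 genes with undetected probes at their bound (-2.3 as fitted) and -0.01 over all genes. The 3 largest decreases were those of Thbs2, Mgp and Mfap5, and the smallest, of Lox, was not stable as described above. The smooth muscle markers moved the other way in this comparison: all 6 tested were called higher, with Acta2 at 15.08 with PMCA4b, 13.88 with vector B and 13.90 with vector A. Among them, Actg2 was undetected with PMCA4b and with both vectors, so its call gives no measured rise. Tagln was undetected with both vectors and detected on 4 of 5 PMCA4b arrays. Of the 7 fibroblast markers tested, 1 was higher and 6 were lower, and both adipocyte markers tested were lower. Pparg was at least 18-fold lower by its brightest probe (detected on 2 of 5 PMCA4b arrays). Its 2 probes gave fitted log2 differences of -4.33 and -1.81, both called lower. Plin4 was at least 10.2-fold lower and was detected on none of the PMCA4b arrays. The endothelial marker Egfl7 was at least 3.06-fold higher than the average of the vectors (detected on 4 of 9 vector arrays). Egfl7 read 9.27 with PMCA4b and 8.95 with vector B, and was undetected with vector A. The part of these markers in the decreases was not tested.

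PMCA4b against WT shows where the KO cells given PMCA4b DNA lay relative to cells with the intact gene. Of the 6 genes, 2 were higher, Eln and Lox, and 4 were lower, Mfap5, Mgp, Thbs1 and Thbs2, where 34% of all genes were higher and 35.1% were lower. The median log2 difference was -1.73 over the 6 genes with undetected probes at their bound (-2.36 as fitted) and 0.01 over all genes. Side by side, the log2 difference from WT was -4.61 for PMCA4b and -0.63 for KO in Mgp. It was 0.27 for PMCA4b and 1.31 for KO in Eln. Thbs2 was at least 17.4-fold below WT for PMCA4b, where it was undetected, and 1.33-fold above WT for KO. These 2 comparisons share the WT arrays.

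Vector against KO without DNA compares KO cells electroporated with a vector with KO cells given no DNA. Electroporation, the vector and any difference between cultures cannot be told apart in it. By limma, 0 of the 6 genes were higher, also at an unadjusted p under 0.05, and 4 were lower, Mfap5, Mgp, Thbs1 and Thbs2, where 39.6% of all genes were higher and 34.8% were lower. The median log2 difference was -0.99 over the 6 genes and 0.03 over all genes. This comparison shares the KO arrays with knockout against wild type and the vector arrays with PMCA4b against vector. The summed smooth muscle markers were also lower with vector, from 17528 to 18248 with vector B and 17764 to 19021 with vector A against 70720 to 74493 in KO cells. Most of this sum is Acta2, and all 6 smooth muscle markers tested were lower. Of the 7 fibroblast markers tested, 4 were higher and 3 lower, and both adipocyte markers tested were higher. The part of these markers in the result was not tested.

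Vector B against vector A compares 2 groups of one label class, both vector controls. Of the 6 genes, 1 was higher with vector B, Thbs2, and 2 were lower, Mfap5 and Thbs1, where 27.9% of all genes were higher and 25.5% were lower. The median log2 difference was -0.14 over the 6 genes and 0 over all genes. Eln (log2 0.15), Lox (log2 -0.13) and Mgp (log2 -0.14) did not pass, with limma adjusted p-values of 0.0658, 0.102 and 0.082. The vector A arrays stand in another set of columns than the vector B arrays. With the column sets as a block, which the WT, KO and PMCA4b arrays of each set allow, the log2 difference was 2.67 for Thbs2 (limma adjusted p = 2.1e-13) and -2.23 for Mfap5 (limma adjusted p = 1.78e-11).

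**Figure D2:**
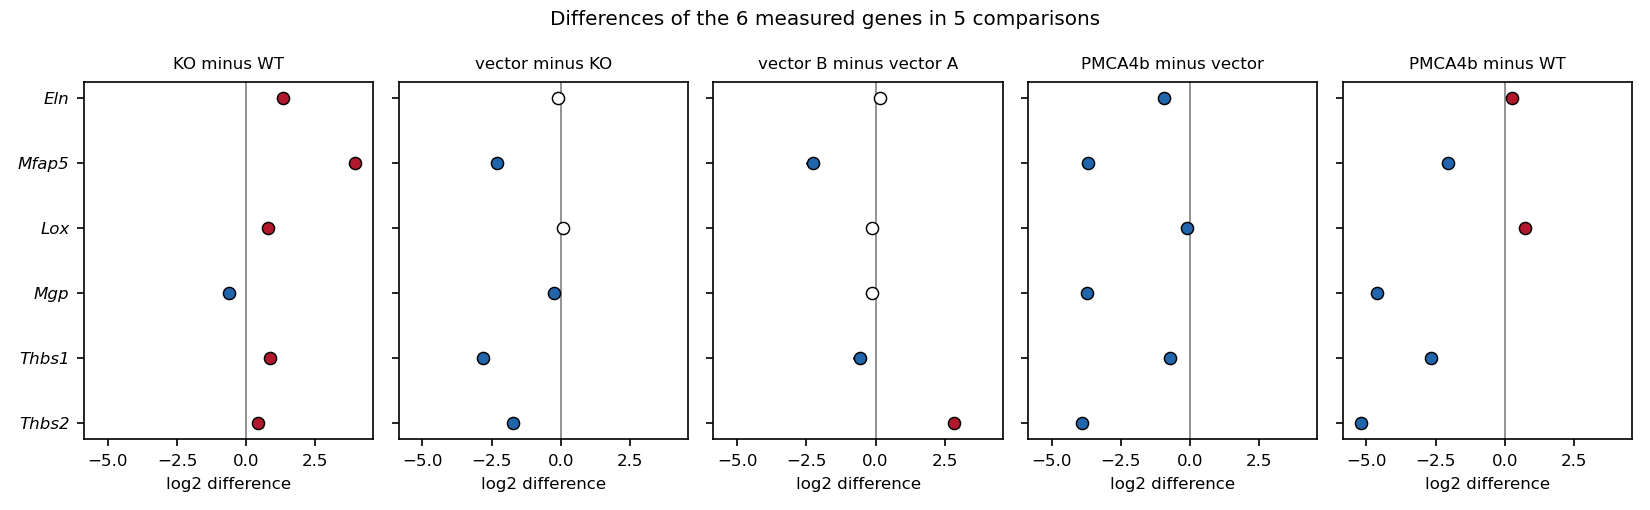
Log2 difference (horizontal axes) of the 6 genes in the 5 comparisons; points are estimates, lines 95% intervals (mostly hidden by the points), red is higher and blue lower at a limma adjusted p under 0.05, and white did not pass. All 6 points are blue for PMCA4b minus vector, and 5 of 6 are red for KO minus WT; the PMCA4b values of Mfap5 and Thbs2 come from undetected probes.

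The wider elastic fibre pathway held 32 further genes, of which 28 had a named probe and 16 were tested. In KO against WT, 8 of the 16 were higher and 6 lower (26.6% and 31.1% of all genes; median log2 0.24, or 0 with undetected genes at their bound), led by Emilin2, an elastin microfibril interface protein, at 4.05-fold higher (10.35 ± 0.0742 in KO, 8.33 ± 0.277 in WT; SD, n = 5 each; limma adjusted p = 3.14e-15). Loxl4, a lysyl oxidase homologue detected on 4 of 5 WT arrays, was 2.48-fold higher in KO, and Fbln1, fibulin 1, was 1.94-fold lower. Efemp1 was undetected in KO and WT cells and with PMCA4b, so a call on it between these groups gives no measured difference. With PMCA4b, 3 were higher and 12 lower than with vector (38.3% and 40.5% of all genes; median -0.48, or -0.38 at the bound). Against WT, 6 were higher and 6 lower (34% and 35.1% of all genes; median 0.15, or 0.07 at the bound). Loxl1, the lysyl oxidase homologue that renews elastic fibres in mice, read 9.22 ± 0.046 with PMCA4b, 11.08 ± 0.039 with vector B, 12.27 ± 0.0831 with vector A, 13.07 ± 0.0667 in KO and 13.45 ± 0.0644 in WT cells (SD; n = 5, but 4 with vector B). Loxl1 was thus 5.5-fold lower with PMCA4b than with vector (limma adjusted p = 6.99e-24) and 18.8-fold lower than in WT (limma adjusted p = 2.31e-27), while Lox itself was higher with PMCA4b than in WT. Ltbp3, a latent TGF-beta binding protein, was 2.62-fold lower with PMCA4b than with vector. Vector against KO gave 7 higher and 2 lower (39.6% and 34.8% of all genes; median 0.16, or 0.14 at the bound), with Fbln1 7.82-fold lower and Loxl2 2.59-fold higher. Vector B against vector A gave 2 higher and 7 lower (27.9% and 25.5% of all genes; median -0.25). The probes of Fbln2 were called in opposite directions in KO against WT.

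Of 25 further matricellular genes, 22 had a named probe and 13 were tested. In KO against WT, 11 were higher and 2 lower (26.6% and 31.1% of all genes; median log2 0.79). Among the 11, Svep1 was undetected in both KO and WT cells and was kept through its vector arrays. Its call gives no measured rise. Tgfbi, a secreted integrin ligand, was 9.73-fold higher in KO (12.41 ± 0.0879 in KO, 9.13 ± 0.116 in WT; SD, n = 5 each; limma adjusted p = 7.55e-22), Tnc, tenascin C, was 6.35-fold higher with 4 of 5 WT arrays detected, and Sparc was 2.07-fold higher. Against vector, PMCA4b gave 2 higher and 9 lower (38.3% and 40.5% of all genes; median -0.65, or -0.45 at the bound). Smoc1 was at least 9.17-fold lower (limma adjusted p = 7.34e-21) and Ccn5 at least 8.9-fold lower (limma adjusted p = 3.53e-20), each detected on 2 of 5 PMCA4b arrays, and Ccn2, connective tissue growth factor, was 2.47-fold lower. Against WT, PMCA4b gave 5 higher and 6 lower (34% and 35.1% of all genes; median 0.06, or 0 at the bound), with Tnxb, tenascin X, at least 7.4-fold higher and not detected in WT. Vector against KO gave 6 higher and 6 lower (39.6% and 34.8% of all genes; median -0.03). Vector B against vector A gave 5 higher and 5 lower (27.9% and 25.5% of all genes; median -0.07), with Ccn5 3.07-fold higher with vector B. The 2 probes of Ecm1 were called in opposite directions for PMCA4b against vector.

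Of 27 further calcification genes, 25 had a named probe and 13 were tested. In KO against WT, 7 were higher and 2 lower (26.6% and 31.1% of all genes; median log2 0.28, or 0 at the bound). Fetub was undetected in both KO and WT cells, so a call on it here gives no measured difference. Tnfrsf11b, osteoprotegerin, a decoy receptor whose loss calcifies arteries in mice, read 10.61 ± 0.0615 with PMCA4b, 13.01 ± 0.0308 with vector B, 14.20 ± 0.0422 with vector A and 9.51 ± 0.18 in KO cells (SD; n = 5, but 4 with vector B), and it was not detected on any of the 5 WT arrays. It was at least 8.61-fold higher in KO than in WT (limma adjusted p = 1.3e-19), 17-fold higher with vector than in KO (limma adjusted p = 2.56e-22) and 7.99-fold lower with PMCA4b than with vector (limma adjusted p = 8.71e-20). Against vector, PMCA4b gave 2 higher and 9 lower (38.3% and 40.5% of all genes; median -0.52). Among the 9, Nt5e, an enzyme that makes adenosine and whose loss calcifies human arteries, was at least 3.17-fold lower, and Ahsg, the serum calcification inhibitor fetuin A, at least 3.35-fold lower, both undetected with PMCA4b. Ggcx, the carboxylase that activates matrix Gla protein, had a fitted log2 difference of -1.47 by its brightest probe. That probe was detected on 1 of 5 PMCA4b arrays, so the size rests mostly on undetected readings. The 3 probes of Ggcx ran from -1.47 to -0.68, all called lower. Against WT, PMCA4b gave 7 higher and 3 lower (34% and 35.1% of all genes; median 0.27, or 0 at the bound). Among the 7, Ahsg was undetected both with PMCA4b and in WT cells and was kept through its vector arrays. Its call gives no measured rise. Vector against KO gave 8 higher and 0 lower by limma, with 0 lower also at an unadjusted p under 0.05 (39.6% and 34.8% of all genes; median 0.6). Vector B against vector A gave 4 higher and 7 lower (27.9% and 25.5% of all genes; median -0.33, or -0.22 at the bound). The 2 probes of Smad6 were called in opposite directions for vector against KO.

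Of 18 receptors of these matrix proteins, 17 had a named probe and 11 were tested. In KO against WT, 4 were higher and 4 lower (26.6% and 31.1% of all genes; median log2 -0.1), and Itga3, an integrin subunit, was 5.45-fold lower in KO (limma adjusted p = 8.05e-16). Cd47, a receptor of thrombospondin 1, was 1.6-fold lower in KO than in WT, and 2.79-fold higher with vector than in KO. Against vector, PMCA4b gave 4 higher and 5 lower (38.3% and 40.5% of all genes; median 0.08), with Itgav 1.94-fold higher (limma adjusted p = 1.21e-12) and Itga3 at least 2.13-fold lower and undetected with PMCA4b. Against WT, PMCA4b gave 4 higher and 5 lower (34% and 35.1% of all genes; median 0.06). Vector against KO gave 4 higher and 6 lower (39.6% and 34.8% of all genes; median -0.18), with Itgb1 2.21-fold lower. Vector B against vector A gave 2 higher and 2 lower (27.9% and 25.5% of all genes; median 0.05). The probes of Sdc1 were called in opposite directions for PMCA4b against vector, and those of Cd44 for vector against KO. The 4 lists were drawn up with earlier results of these arrays known, so their counts are a description. Their counts can also include genes undetected in both groups compared, kept through other groups.

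**Figure D3:**
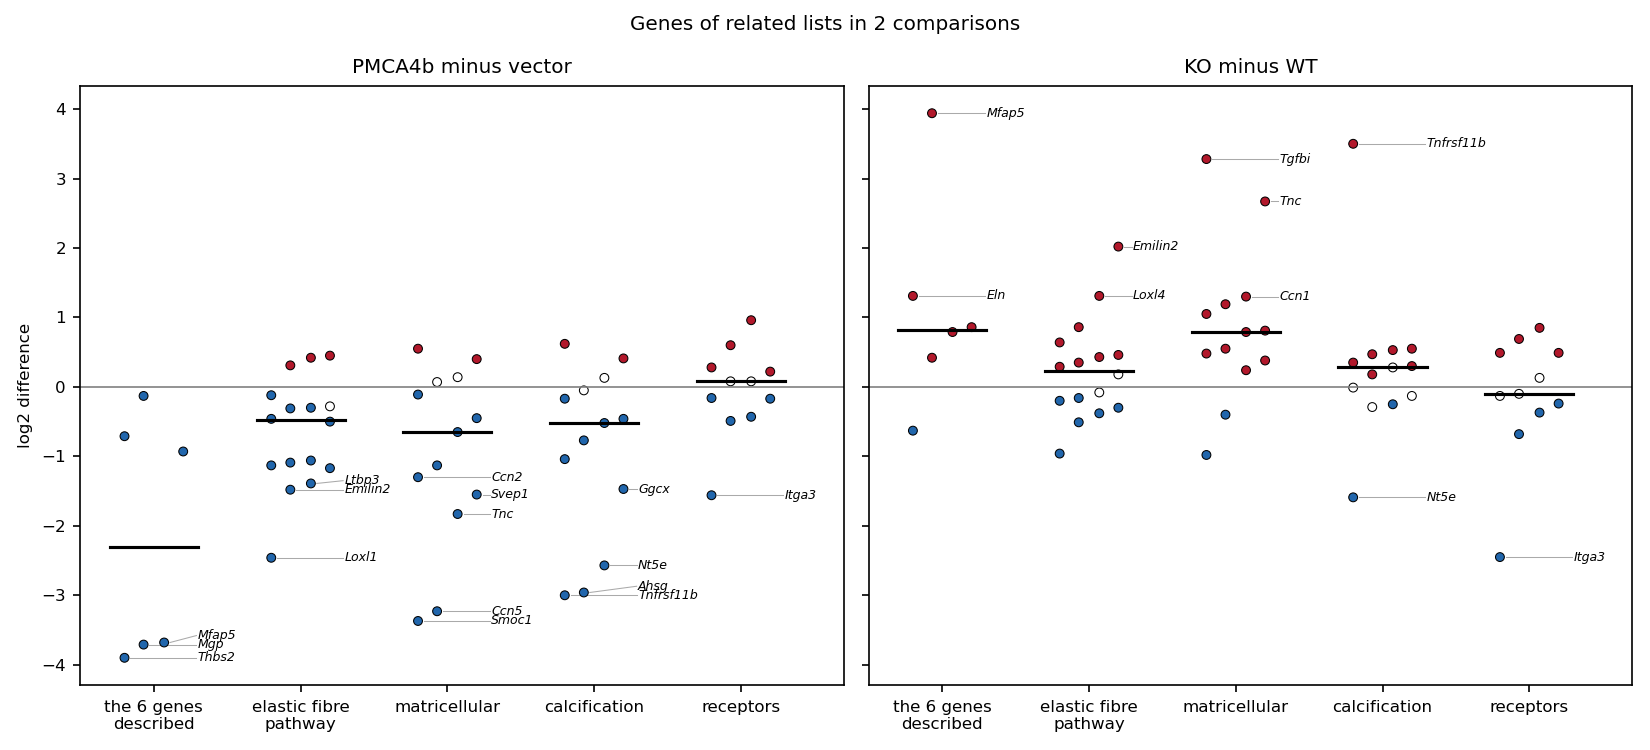
Log2 difference (vertical axes) of each gene tested in the 6 genes and the 4 related lists, for PMCA4b minus vector and KO minus WT; red is higher and blue lower at a limma adjusted p under 0.05, white did not pass, bars are list medians, and the genes farthest from 0 are named. The median of the 6 genes lies at -2.3 as fitted for PMCA4b minus vector (-1.68 with undetected probes at their bound) and at 0.83 for KO minus WT.

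For 5 of the 6 genes, those whose group means span at least 1 on the log2 scale, the genes with the most similar pattern were sought among 2849 genes of the same minimum span, by the Pearson correlation over the 24 arrays. Nearest to Eln were Bscl2, the lipid droplet protein seipin (0.9775), and Emilin2 (0.9711), the second also a gene of the elastic fibre list. Nearest to Mfap5 were Castor1, an arginine sensor (0.9683), and Avpr1a, a vasopressin receptor (0.9671), and nearest to Mgp were Fam102a (0.9899) and Akr1c18 (0.989). Nearest to Thbs1 were the growth factor Fgf10 (0.972) and the small GTPase Diras2 (0.9705), and nearest to Thbs2 were the small GTPase Rhou (0.9725) and Pxylp1 (0.9636). The span of Lox was 0.92, so no neighbours were sought for it. Akr1c18 was, like Mgp, lowest with PMCA4b, at 5.08 ± 0.208 with PMCA4b, 8.38 ± 0.0707 with vector B, 9.23 ± 0.0485 with vector A, 9.21 ± 0.0576 in KO and 9.95 ± 0.0988 in WT cells (SD; n = 5, but 4 with vector B). Its PMCA4b mean lies below the lowest detected values (6.16 to 6.57) and is no measured level. The same holds for Avpr1a with PMCA4b (4.9), vector B (5.81) and in WT cells (5.18). It also holds for Fgf10 with PMCA4b (5.49), vector B (5.61) and vector A (5.78). Rhou shared the dip of Thbs2 with vector A, at 7.52 ± 0.228 with PMCA4b, 8.89 ± 0.0843 with vector B, 8.32 ± 0.115 with vector A, 8.99 ± 0.0647 in KO and 9.03 ± 0.108 in WT cells. With 24 arrays in 5 groups, these correlations describe likeness between 5 group means.

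**Figure D4:**
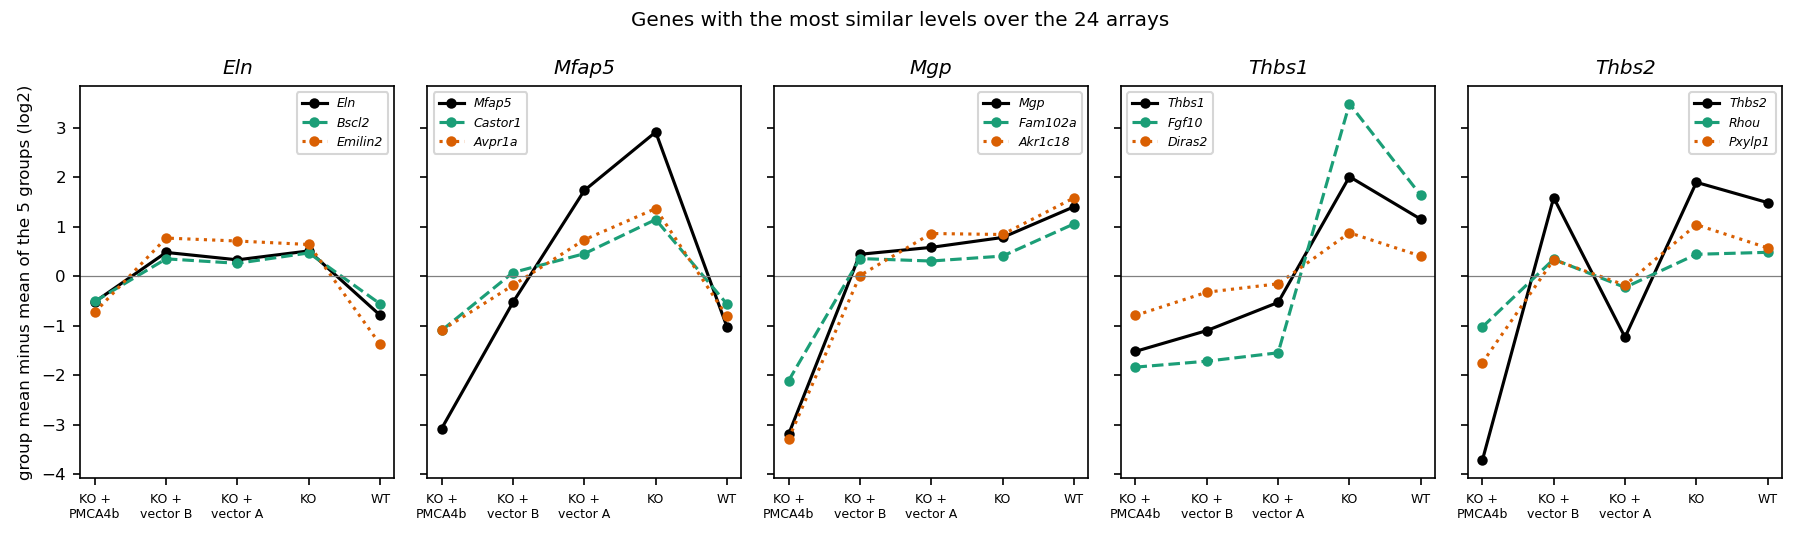
Group means of log2 intensity minus the mean of the 5 groups (vertical axes) for 5 genes (black, solid) and the 2 genes most similar to each over the 24 arrays (coloured, broken); lines only join the groups. Thbs2, Rhou and Pxylp1 all dip at vector A relative to vector B and KO, and Mgp, Fam102a and Akr1c18 are all lowest with PMCA4b. Some means, such as that of Akr1c18 with PMCA4b, lie below the lowest detected values.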

How the data were processed

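The authors deposited bead intensities with detection p-values for 24 Illumina arrays, not normalized between arrays (28.28% to 30.86% of intensities lie below 0). The log2 values deposited by the authors rank each array as its intensities do (rank correlation 1) and share 1 median, 6.24, as quantile normalization gives. RNA was extracted and biotin-labelled with commercial kits, per the labels' protocols, and the software was not stated.

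Background correction and quantile normalization used neqc (limma 3.58.1, R 4.3.3, data.table version 1.17.8) with an offset of 16. The filter asked for a detection p below 0.01 on 4 arrays or more, which left 11139 probes and 7675 genes, each represented by its brightest kept probe. One limma fit over the 24 arrays with 5 group means (19 residual degrees of freedom) was adjusted by Benjamini-Hochberg over all 7675 genes, and genes were called under 0.05. The number of arrays limits the precision.

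Names came from the platform annotation, and a RefSeq gene list updated symbols (Cyr61 to Ccn1, Ctgf to Ccn2, Wisp1 to Ccn4, Wisp2 to Ccn5). The 10 genes, the related lists and the markers were chosen with earlier results of these data known. Named were all 10 genes, up to 3 called genes with the smallest adjusted p per list and comparison, markers, and the 2 nearest genes per tested gene. Ggcx, and genes with opposed probes, were named after their values were seen. Alternatives covered background, scaling, filter, probe choice, the authors' log2 values, the groups fitted, a replicate block, each vector alone and leaving out each array. A chip block was not run, since no header names a chip, and sets of 8 neighbouring columns were used in its place, chosen after seeing the data. Same-numbered arrays deviated together (correlation over 0.1) in 1 of 5 pairs of KO and WT, 2 of 5 of PMCA4b and WT, and 1 of 4 of PMCA4b and vector B. No pair did so in the other pairings examined. The highest values, 0.42 for KO and WT and 0.47 for PMCA4b and WT, were both of replicate 5. Same-numbered WT, KO and PMCA4b arrays share a column set for every replicate number. Numbers were not taken to pair arrays. Figures used Python 3.11.15, pandas 2.3.3, numpy 2.4.6 and matplotlib 3.10.9.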

Additional observations from a re-analysis of the deposited data

Results flagged for a closer look

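Among 30 sets of 4 or 5 arrays (6 genes in 5 groups), 1 held an array far from the others, where chance would mark about 1 in 20. Eln read 8.87 on vector A replicate 4, and the nearest vector A array read 9.13. The gap was 0.788 of the whole range of the group, above the critical 0.71 for 5 arrays. Without this array, Eln was 0.96 lower on the log2 scale with PMCA4b than with vector (log2 -0.96, limma adjusted p = 4.57e-14), and vector B differed from vector A by 0.09 (limma adjusted p = 0.22).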

How the results depend on the processing

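None of the values of the 6 genes turned its sign past the threshold in any alternative run. Over 330 values under alternatives of processing, 319 kept their side of the threshold, 3 lost it and 8 gained it, and over 720 values with 1 array left out, 711 kept it, 7 lost it and 2 gained it. All 7 and all 3 losses were those of Lox in PMCA4b against vector. Its log2 difference ran from -0.2 to -0.05, with the adjusted p at 0.0773 with no filter on dim probes. For vector B against vector A, the count of genes lower was 4 in place of 2 under median scaling, with only the groups compared and with the replicate block, since Lox (limma adjusted p = 0.0221, 0.0185 and 0.0463) and Mgp (0.00351, 0.0299 and 0.0461) then passed. The count of genes higher ran from 1 to 2 when arrays were left out, 2 without WT replicate 4 or vector A replicate 3, when Eln passed (limma adjusted p = 0.0438 and 0.0457). The replicate block changed no other call, and the cause of these changes was not tested. With column sets as a block, Mgp also passed for vector B against vector A (log2 -0.24, limma adjusted p = 0.0351). The size of differences that end at an undetected probe depends on the background treatment: Thbs2 in PMCA4b against WT ran from -6.18 with a floor of 16 to -4.38 with an offset of 50, and Mfap5 from -2.87 to -1.39, which is why bounds are given in the text. Such probes limit the size of a difference but not its direction in these runs. Whether bright probes near the top of the scale also limit the size was not tested.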
